A study of Mus musculus with 10 samples.

Results

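The 10 genes described here code for glucose carriers and glycolytic enzymes (Slc2a1, Slc2a3, Hk2, Pfkp, Aldoa, Pgk1, Eno1, Pkm, Ldha) and for pyruvate dehydrogenase kinase 1 (Pdk1). They were taken by mouse gene symbol from the 52636 Ensembl identifiers of the count tables, by a rule that uses symbols only. The list itself was chosen with earlier results of these data known. The 10 symbols matched 11 identifiers, because Aldoa carried a second one. That second identifier (ENSMUSG00000114515) was counted 3 and 1 times in the WT libraries and 2 times in each CBE-KO library, too few for the test, so 10 identifiers were tested. RNA-seq was done on mouse E14 embryonic stem cells, an established pluripotent line, with 2 libraries of unedited cells (WT) and 2 of cells that lack a CTCF binding element acting on HoxA (CBE-KO). Both groups had left medium with LIF and inhibitors of MEK and GSK and received 2 µM retinoic acid for 24 h, so no untreated cells enter this comparison. The labels do not say how many CBE-KO clones were used or whether the libraries of a group came from separate cultures. P-values therefore measure the spread between these libraries, which may be partly technical.

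Glucose enters cells through facilitative carriers of the Slc2a family and is trapped by hexokinases as glucose 6-phosphate. Phosphofructokinase commits the sugar to glycolysis, aldolase splits it, and phosphoglycerate kinase and pyruvate kinase make ATP on the way to pyruvate. Lactate dehydrogenase turns pyruvate into lactate, whereas the pyruvate dehydrogenase complex, which Pdk1 switches off by phosphorylation, feeds it to the mitochondria. Pluripotent stem cells are known for a high glycolytic rate, and many of these genes are textbook targets of hypoxia-inducible factor and of Myc.

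Library totals lay between 14108038 and 15632960 counts, where 3 counts equal 0.192 to 0.213 CPM (the usual scale of read counts relative to library size, here the plain total and below the total scaled by TMM, the trimmed mean of M-values). Libraries of a group differed by more than sampling noise, with a chi-square per degree of freedom of 3.40 for WT and 2.70 for CBE-KO. They were treated as separate replicates, although this excess does not show that they came from separate cultures. The common spread between libraries of a group, edgeR's coefficient of variation beyond counting noise, was 5.2%. With a spread this small, small changes can pass. Y-linked genes set the groups apart: the 2 WT libraries held 6 and 5 reads of Ddx3y and the CBE-KO libraries 920 and 822, and Eif2s3y and Uty were likewise near 0 in WT only. The groups thus differed in Y-linked expression as well as in genotype, and in every result below the deleted element and any other difference between the cell populations cannot be told apart. Of 7 pluripotency markers, 5 fell, 1 (Nanog, not without CBE-KO 1 or CBE-KO 2) rose and Esrrb did not pass, and their summed level was 4356 to 4537 CPM in WT and 3300 to 3342 CPM in CBE-KO. Fibroblast markers summed to 11.4 to 12.9 CPM in WT and 14.8 to 17.6 CPM in CBE-KO, with Dcn, Lum and Postn at 0 in every library. Of the other fibroblast markers, Col1a1 passed as higher (48 and 50 against 95 and 100 reads) and Thy1 did not pass. Col1a2 (0 and 1 against 12 and 8 reads) and Col3a1 (0 and 0 against 8 and 1) were too low for the test. Sums were 114 to 117 against 139 to 141 CPM for extraembryonic endoderm, 101 to 112 against 111 to 113 CPM for trophoblast, 399 to 433 against 307 to 313 CPM for neurons and 2.05 to 3.42 against 7.9 to 9.0 CPM for blood, with Hbb-bs and Hba-a1 at 0 throughout. The blood sum rose through Cd34 (10 and 20 against 99 and 98 reads), and the neuron sum fell through Stmn2 and Tubb3 while Map2 passed as higher (0.85, but not in DESeq2 or without CBE-KO 2). Of the extraembryonic endoderm markers, Gata4 (0.72), Dab2 (0.77, but not in DESeq2) and Lama1 (0.55) passed as higher and none as lower. Of the trophoblast markers, Tfap2c (-0.74) passed as lower, and Krt8 (0.20) and Krt18 (0.41) as higher, though neither keratin in DESeq2. The part of these marker changes in the results below was not tested.

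Between CBE-KO and WT, the 10 genes did not move as a block. Slc2a3 rose by 35.8%, Hk2 fell by 31.1%, Eno1, Ldha, Aldoa and Pkm fell by 8.43% to 15.3%, and Slc2a1, Pfkp, Pgk1 and Pdk1 did not pass the test. In edgeR's quasi-likelihood test at an adjusted p under 0.05, 6 of the 10 passed, 1 higher and 5 lower, where 43.1% of all 16005 tested genes passed, 21.6% higher and 21.5% lower. All 10 were abundant, and abundant genes passed more often as lower than as higher. Among the 4364 tested genes with a mean of at least 50 CPM, a limit chosen after the values were seen, 60.2% passed, 16.8% higher and 43.4% lower. The counts for the 10 genes lay near those shares. Their median log2 fold change was -0.09, beside 0.01 for all tested genes and -0.10 for the abundant ones.

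The small falls depended on how libraries were scaled. Scaled to library totals, the median of all tested genes was 0.11 instead, and 3 of the 10 genes passed as lower (Hk2, Eno1, Ldha) and 2 as higher (Slc2a3, Slc2a1). With this scaling 44.5% of all tested genes passed, 29.8% higher and 14.7% lower. Without CBE-KO 1 the calls for Aldoa and Pkm were lost, at log2 fold changes of -0.13 for each. They were likewise lost without CBE-KO 2, at -0.18 for Aldoa and -0.12 for Pkm. In both fits a lone library stood for CBE-KO, and fewer of all tested genes passed than with 4 libraries. As a plain share of all counts, the 10 genes together took 1.22% (95% exact Clopper-Pearson interval 1.22% to 1.23%) and 1.26% (1.25% to 1.26%) in WT. They took 1.28% (1.27% to 1.28%) and 1.27% (1.27% to 1.28%) in CBE-KO. These intervals cover counting error only. With TMM scaling the direction was the opposite, with sums of 12766 and 12965 CPM in WT and 12315 and 12356 CPM in CBE-KO. Of the 186491 and 178297 counts of the 10 genes in the WT libraries, Slc2a3 alone had 24646 and 24861. In the CBE-KO libraries it had 38704 and 34331 of 199847 and 179783, so the joint share does not describe the other genes.

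**Figure D1:**
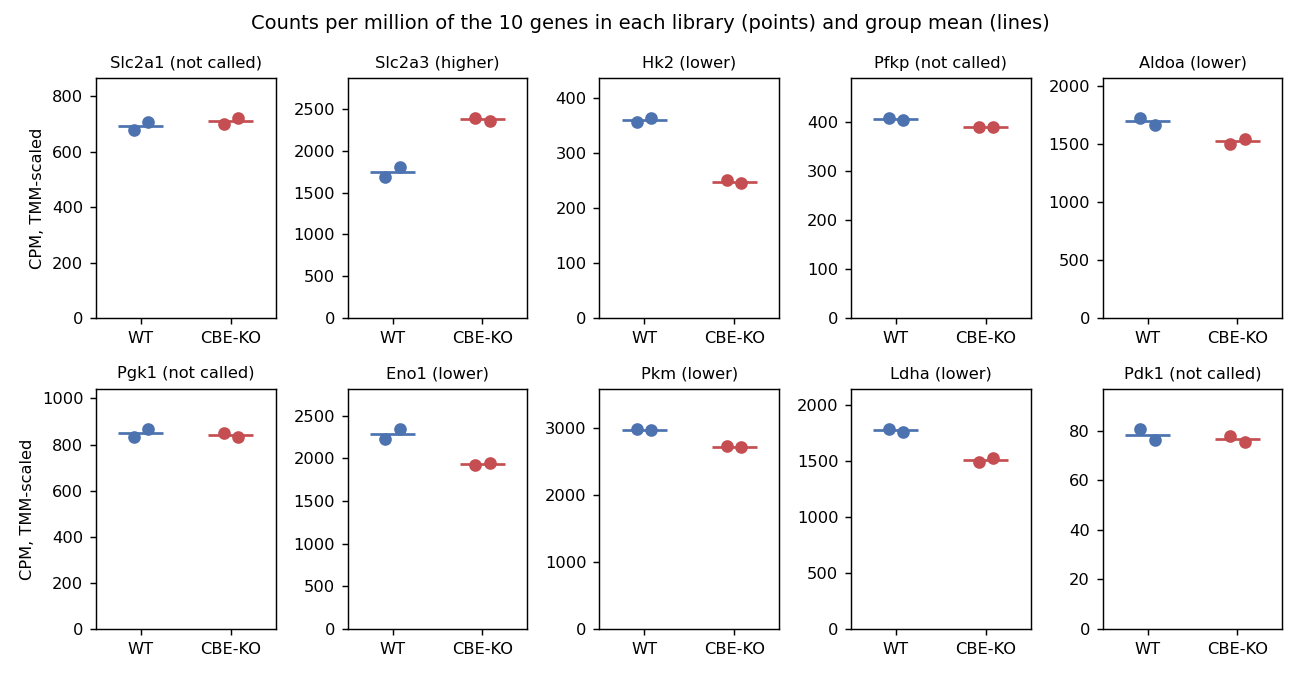
TMM-scaled CPM (y axis from 0) of the 10 genes in each WT and CBE-KO library (points), with group means (lines) and the outcome of the edgeR test in each title. Slc2a3 is visibly higher and Hk2 visibly lower in both CBE-KO libraries, while the other differences are small against the level of the gene.

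**Figure D2:**
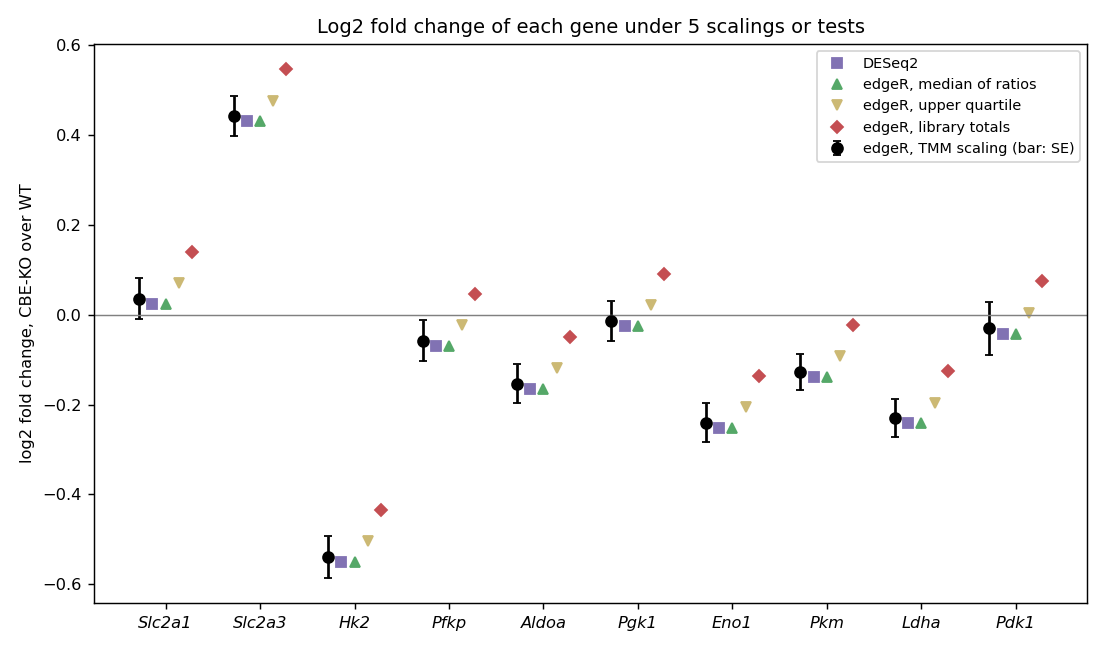
Log2 fold change of CBE-KO over WT (y axis) for each of the 10 genes (x axis) with 4 scalings in edgeR and with DESeq2, with standard errors for TMM scaling only. Library totals shift every gene upward, so that the points of Pfkp, Pgk1 and Pdk1 cross 0, while Slc2a3 stays above and Hk2, Eno1 and Ldha below.

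Promoter sequences are shown for 4 genes, chosen so that 2 that fell (Hk2, Ldha) stand beside 2 that did not pass (Pgk1, Slc2a1). RefSeq promoter windows of 300 bases (250 before and 50 after the start, build GRCm38.p6) were matched by symbol for 9 of the 10 genes, all but Slc2a3. Capitals mark ACGTG or GCGTG on either strand, the core letters of the element bound by hypoxia-inducible factor. The windows are the first listed for each gene, on the gene's strand: chr6:82774405-82774704 (minus) for Hk2, chr7:46845554-46845853 (plus) for Ldha, chrX:106186850-106187149 (plus) for Pgk1 and chr4:119108495-119108794 (plus) for Slc2a1.
Hk2: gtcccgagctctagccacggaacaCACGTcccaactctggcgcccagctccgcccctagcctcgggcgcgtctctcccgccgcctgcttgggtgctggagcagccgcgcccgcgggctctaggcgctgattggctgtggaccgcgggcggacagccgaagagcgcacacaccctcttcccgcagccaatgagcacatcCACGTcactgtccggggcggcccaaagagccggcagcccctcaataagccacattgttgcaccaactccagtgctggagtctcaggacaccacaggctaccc
Ldha: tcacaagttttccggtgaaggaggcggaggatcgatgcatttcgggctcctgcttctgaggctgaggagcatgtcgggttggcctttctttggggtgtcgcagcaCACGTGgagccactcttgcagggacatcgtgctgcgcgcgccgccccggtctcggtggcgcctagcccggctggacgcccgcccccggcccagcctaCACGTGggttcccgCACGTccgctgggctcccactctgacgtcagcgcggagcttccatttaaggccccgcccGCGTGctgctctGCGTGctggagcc
Pgk1: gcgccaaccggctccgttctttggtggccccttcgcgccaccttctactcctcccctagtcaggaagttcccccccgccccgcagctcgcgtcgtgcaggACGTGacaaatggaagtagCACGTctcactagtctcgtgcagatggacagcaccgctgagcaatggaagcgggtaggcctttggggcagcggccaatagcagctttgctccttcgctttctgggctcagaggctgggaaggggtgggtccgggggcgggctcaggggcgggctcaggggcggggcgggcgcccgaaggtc
Slc2a1: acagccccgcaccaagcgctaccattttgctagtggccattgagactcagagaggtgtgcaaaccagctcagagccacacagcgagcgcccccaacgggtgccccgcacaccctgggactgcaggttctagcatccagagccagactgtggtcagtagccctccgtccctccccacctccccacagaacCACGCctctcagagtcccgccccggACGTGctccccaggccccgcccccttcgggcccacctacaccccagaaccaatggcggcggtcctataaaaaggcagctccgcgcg

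The presence of the core letters could not sort the genes that fell from the others, since every gene with a window held them. Slc2a3, the only member that passed as higher, had no window. At least 1 window with ACGTG or GCGTG was found for 9 of 9 genes, beside 46.7% of the 27025 genes in the table, and for 13 of 16 windows (81.2%), beside 43.8% of all 32851 windows. Hk2, Pgk1 and Slc2a1 each had 2 matches in the windows shown, and Ldha had 7, counting both strands of its 2 CACGTG boxes. CACGTG, the E-box bound by Myc and Max, overlaps ACGTG and occurred in Ldha alone among the 9, beside 8.09% of all genes. The GC box letters CCGCCC occurred in 9 of 9, beside 38.2% of all genes. These matches are descriptions of letters, and genes with several windows had more chances to match. The shares of all genes and windows were not matched for content of G and C, which was 40.3% to 69% in the member windows.

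Of the glucose carriers among the members, Slc2a3 was higher in CBE-KO and Slc2a1 did not differ beyond the spread between libraries. Slc2a3 (ENSMUSG00000003153, chr6:122727809-122802363 in RefSeq's GRCm38.p6, as all gene positions here), the high-affinity carrier GLUT3, had levels of 1687 and 1808 CPM in WT and 2385 and 2359 CPM in CBE-KO. Both CBE-KO libraries lay above both WT libraries. The log2 fold change was 0.44 ± 0.04 (SE; adjusted p = 4.77e-07 in edgeR), higher than that of 80.8% of tested genes, and passed under every alternative tried except a required log2 change of 1. Slc2a1 (ENSMUSG00000028645, chr4:119108745-119137330), the widespread carrier GLUT1, had 679 and 706 CPM in WT and 699 and 721 CPM in CBE-KO, and the groups overlapped. Its log2 fold change of 0.04 had a 95% interval of -0.06 to 0.13 (adjusted p = 0.567 in edgeR), but with library totals alone it was 0.14 and passed (adjusted p = 0.0165 in edgeR). Other carriers of the family were named after their values were seen. Slc2a8 rose by 0.44 in log2 (adjusted p = 0.000678 in edgeR) and passed in DESeq2 (adjusted p = 0.00951). Slc2a4 rose by 0.48 (adjusted p = 0.0249 in edgeR), but did not pass in DESeq2 (adjusted p = 0.147). Slc2a12 did not pass (-0.29, adjusted p = 0.725 in edgeR), and Slc2a2 and Slc2a10 were too low for the test.

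Hk2 (ENSMUSG00000000628, chr6:82725025-82774454), the inducible hexokinase that sits on the outer mitochondrial membrane, was the member with the steepest fall. Its levels were 357 and 363 CPM in WT and 250.5 and 246 CPM in CBE-KO. The groups were far apart relative to the few CPM between libraries of a group. A log2 fold change of -0.54 ± 0.05 (SE; adjusted p = 6.64e-08 in edgeR) put it below all but 9.40% of tested genes. It passed under every alternative except a required log2 change of 1, with log2 fold changes from -0.55 to -0.43.

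In the middle of the pathway, Aldoa fell slightly and Pfkp did not pass. Pfkp (ENSMUSG00000021196, chr13:6579874-6649060), the platelet-type phosphofructokinase, had 407 and 403 CPM in WT and 389 and 389 CPM in CBE-KO. The WT values were just above those of CBE-KO without overlap, yet the log2 fold change of -0.06 (95% interval -0.15 to 0.04) did not pass (adjusted p = 0.324 in edgeR) and became 0.05 with library totals. Aldoa (ENSMUSG00000030695, chr7:126795234-126800994), the main aldolase, had 1724 and 1671 CPM in WT and 1504 and 1550 CPM in CBE-KO, again without overlap. This was a log2 change of -0.15 ± 0.04 (SE; adjusted p = 0.00803 in edgeR). With library totals it was -0.05 (adjusted p = 0.365 in edgeR), and without CBE-KO 1 or CBE-KO 2 it did not pass (adjusted p = 0.157 and 0.0531 in edgeR).

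Among the enzymes that lead to pyruvate, Eno1 and Pkm fell and Pgk1 did not pass. Pgk1 (ENSMUSG00000062070, chrX:106187100-106203699), which makes the first ATP of the payoff phase, had 834 and 867 CPM in WT and 852 and 833 CPM in CBE-KO. The groups overlapped, and the log2 fold change was -0.01 (95% interval -0.11 to 0.08, adjusted p = 0.837 in edgeR), with a sign that changed with scaling (0.09 with library totals). Eno1 (ENSMUSG00000063524, chr4:150236708-150248879), the widely expressed enolase, had 2228 and 2342 CPM in WT and 1924 and 1945 CPM in CBE-KO. The 4 values did not overlap between groups. On the log2 scale it changed by -0.24 ± 0.04 (SE; adjusted p = 0.000217 in edgeR) and passed with library totals as well (-0.14, adjusted p = 0.0124 in edgeR). Pkm (ENSMUSG00000032294, chr9:59656576-59679372), which codes for the M1 and M2 pyruvate kinases that gene counts do not separate, had 2981 and 2962 CPM in WT and 2735 and 2707 CPM in CBE-KO. Its log2 fold change of -0.13 ± 0.04 (SE; adjusted p = 0.0172 in edgeR) did not pass with upper-quartile scaling (adjusted p = 0.0671 in edgeR) or library totals (-0.02, adjusted p = 0.678 in edgeR). Leaving out CBE-KO 1 or CBE-KO 2 gave in edgeR an adjusted p of 0.152 and 0.205 for Pkm.

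Reads of some members may be shared with near-identical gene copies. Eno1b (ENSMUSG00000059040), a near copy of Eno1 that was named here after its values were seen, was counted 15370 and 13820 times in the WT libraries and 13852 and 12014 times in the CBE-KO libraries. For Eno1 itself these counts were 32547, 32203, 31219 and 28307. Eno1b changed by a log2 fold change of -0.29 ± 0.05 (SE; adjusted p = 5.43e-05 in edgeR). How the counting treated reads that match both is not given in the sources used here. Adding the counts of listed copies to Eno1, Aldoa, Pgk1 and Ldha left 6 of the 10 genes past the threshold, 1 higher and 5 lower.

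At the branch after pyruvate, Ldha fell and Pdk1 did not pass. Ldha (ENSMUSG00000063229, chr7:46842274-46855627), the lactate dehydrogenase subunit that favours lactate formation, had 1788 and 1766 CPM in WT and 1498 and 1531 CPM in CBE-KO. Each CBE-KO value was below each WT value. The log2 fold change was -0.23 ± 0.04 (SE; adjusted p = 0.000264 in edgeR) and -0.13 with library totals, where it also passed (adjusted p = 0.0168 in edgeR). Pdk1 (ENSMUSG00000006494, chr2:71873215-71903858) had 80.6 and 76.2 CPM in WT and 78.0 and 75.6 CPM in CBE-KO, with overlap. On the log2 scale the difference was -0.03 (95% interval -0.16 to 0.09, adjusted p = 0.713 in edgeR) and became 0.07 with library totals.

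Ratios of a member to its paralogue within a library need no library scaling, and their change between groups needs no gene length. In 11 such pairs, the largest changes were in aldolase, hexokinase and pyruvate dehydrogenase kinase. The Hk2 to Hk1 count ratio went from 4.60 and 4.47 in the WT libraries to 2.81 and 2.77 in CBE-KO, which is -0.70 as a log2 difference. Aldoa had 166 and 182 times the counts of Aldoc in WT and 85.9 and 98.0 times in CBE-KO, which is -0.92 as a log2 difference. The Pdk1 to Pdk2 ratio went from 11.2 and 9.98 to 6.73 and 6.40, and Pdk1 to Pdk4 from 13.4 and 11.0 to 8.21 and 8.59, whereas the Pdk1 to Pdk3 values of the groups overlapped. Slc2a1 to Slc2a3 went from 0.403 and 0.391 to 0.293 and 0.305, and Eno1 to Eno2 from 113 and 138 to 87.5 and 79.1. Both Eno1 and Ldha gained on a paralogue that fell more: Eno1 to Eno3 went from 43.2 and 44.3 to 69.1 and 63.6, and Ldha to Ldhb from 6.98 and 7.38 to 8.09 and 8.24. The differences nearest 0 were -0.04 for Pdk1 to Pdk3, 0.04 for Pfkp to Pfkl and 0.05 for Pfkp to Pfkm, of which only Pfkp to Pfkl did not overlap between groups. With 2 against 2 libraries an exact permutation test (two-sided) cannot give a p below 0.333, the value it gave for each pair without overlap.

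**Figure D3:**
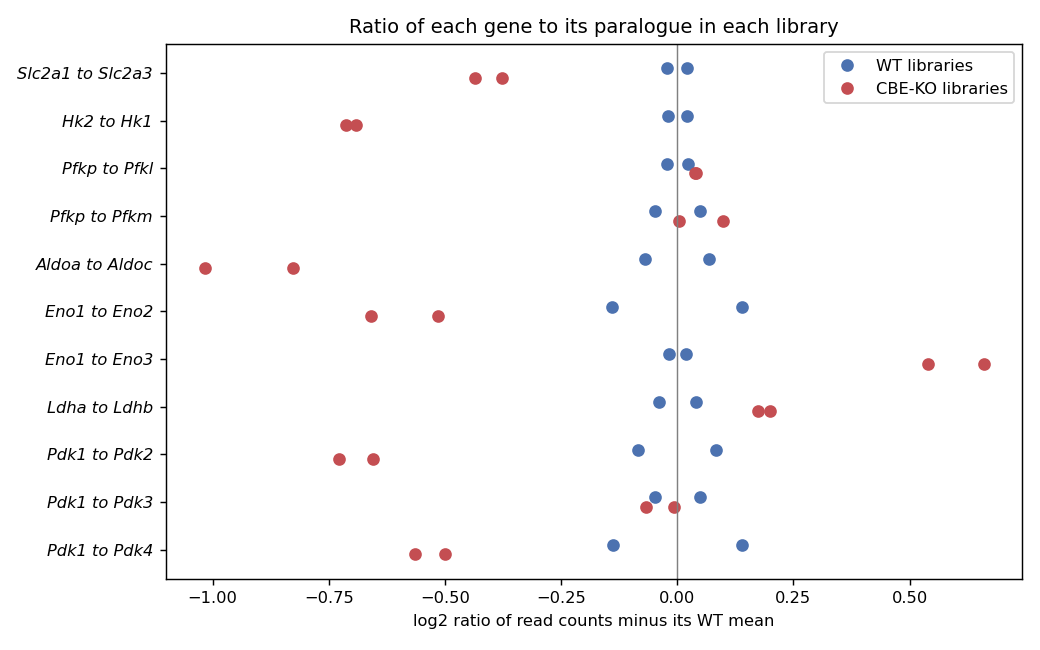
Log2 ratio of the read counts of each member to a paralogue in each library, minus the WT mean of that pair (x axis), for the 11 pairs (y axis). CBE-KO points lie to the left for the pairs with Hk1, Aldoc, Eno2, Pdk2, Pdk4 and Slc2a3, to the right for Eno3 and Ldhb, and near 0 for the phosphofructokinases and Pdk3.

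The paralogues behind these ratios differed in direction. Hk1 was higher, with 77.7 and 81.2 CPM in WT and 89.2 and 88.8 CPM in CBE-KO (0.16 ± 0.06, SE; adjusted p = 0.0260 in edgeR), though not in DESeq2 (adjusted p = 0.188) or without WT 1, CBE-KO 1 or CBE-KO 2. Aldoc, the brain-type aldolase, rose from 10.4 and 9.16 CPM to 17.5 and 15.8 CPM (0.77 ± 0.14, SE; adjusted p = 0.000194 in edgeR). Eno3, the muscle enolase, fell from 51.5 and 52.9 CPM to 27.9 and 30.6 CPM (-0.84 ± 0.08, SE; adjusted p = 1.57e-07 in edgeR). Ldhb fell from 256 and 239 CPM to 185 and 186 CPM (-0.42 ± 0.05, SE; adjusted p = 3.22e-06 in edgeR). Eno2 was higher by 0.34 in log2, but not in DESeq2 (adjusted p = 0.121) or without WT 2 or CBE-KO 2. Pdk4 was higher by 0.50, but not in DESeq2 (adjusted p = 0.146) or without WT 1 or CBE-KO 1. Pdk2 rose by 0.66 (adjusted p = 0.00194 in edgeR), while Pfkm (-0.11) and Pdk3 (0.01, of either sign across alternatives) did not pass. Pfkl (-0.10) passed as lower only without WT 2 and had the opposite sign, 0.0064, with library totals.

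Of 28 other carriers and enzymes of the pathway, 24 were tested, 9 rose and 5 fell, with a median log2 fold change of 0.06. These counts stand beside 21.6% higher and 21.5% lower among all tested genes. DESeq2 passed 5 as higher and 3 as lower, where it passed 28.6% of all tested genes, 12.8% higher and 15.8% lower. Pgam2, the muscle phosphoglycerate mutase, rose from 13.1 and 13.2 CPM to 46.9 and 46.3 CPM (1.82 ± 0.09, SE; adjusted p = 5.05e-11 in edgeR). Its widespread counterpart Pgam1 fell from 770.4 and 771 CPM to 638 and 657 CPM (-0.25 ± 0.04, SE; adjusted p = 0.000188 in edgeR). Gpi1, the isomerase after hexokinase, rose by a log2 fold change of 0.20 (adjusted p = 0.00183 in edgeR), and Tpi1 did not pass (-0.05, adjusted p = 0.384 in edgeR, and 0.05 with library totals). Gapdh, a gene with many near-identical pseudogenes, was lower by -1.08 (adjusted p = 0.000706 in edgeR), with 131 CPM in WT 1 beside 56.4 CPM in WT 2 and 44.0 and 44.7 CPM in CBE-KO. The size rested on WT 1: without it the log2 fold change was -0.35, which still passed (adjusted p = 0.000315 in edgeR). Gapdh did not pass in DESeq2 (adjusted p = 0.150) or with robust moderation (adjusted p = 0.309 in edgeR). Hk3, with 4 to 17 counts per library, was lower by -1.45 (adjusted p = 0.0419 in edgeR), not in DESeq2 (adjusted p = 0.217) with library totals (adjusted p = 0.0545 in edgeR) or without WT 2, CBE-KO 1 or CBE-KO 2.

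**Figure D4:**
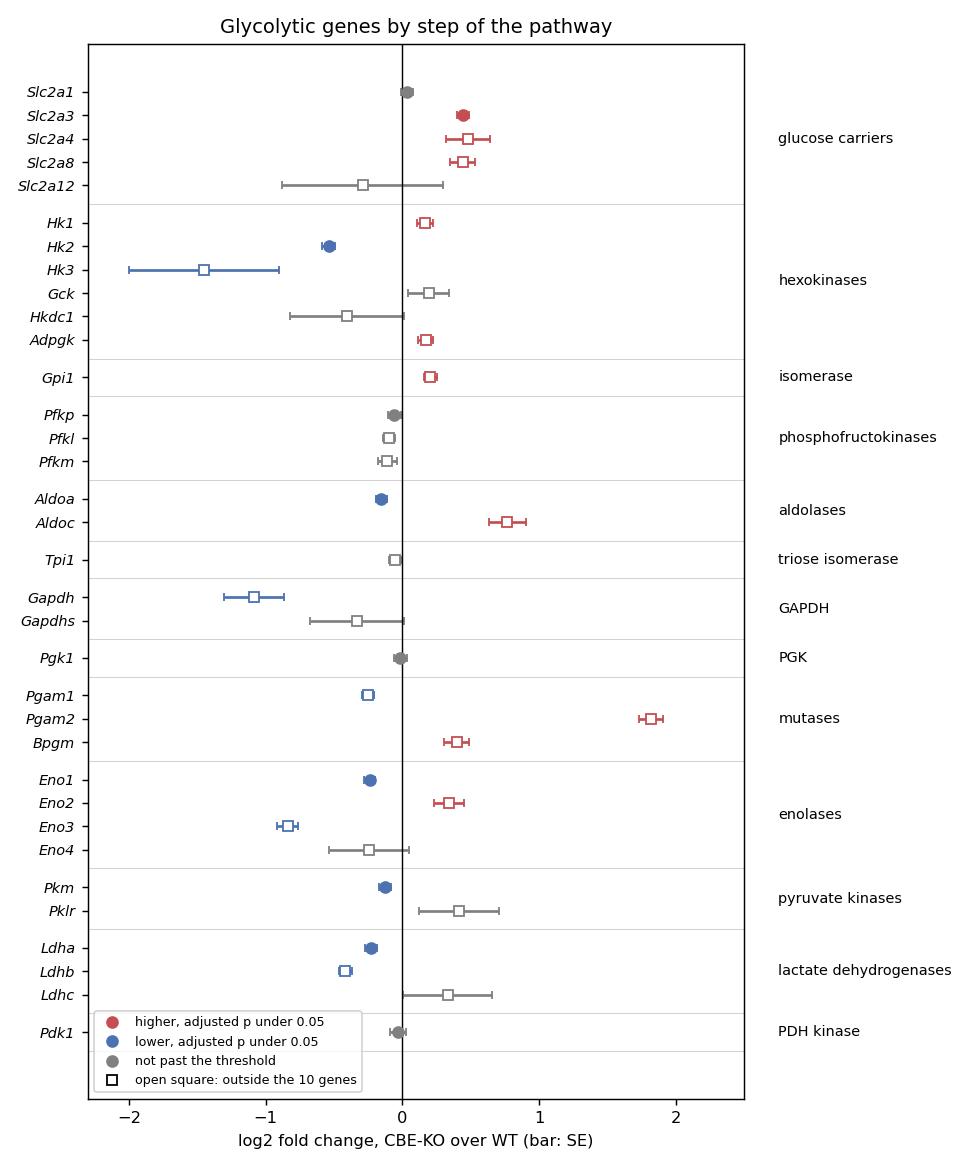
Log2 fold change of CBE-KO over WT (x axis, bars are standard errors) of the tested carriers and glycolytic enzymes and Pdk1, ordered by pathway step, with the 10 genes as filled circles and the others as open squares. Within the hexokinases, aldolases, mutases and enolases, genes that passed as higher (red) and as lower (blue) stand side by side, and no phosphofructokinase passed.

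Genes around pyruvate showed the clearest fall in Pdha1, the catalytic E1 alpha subunit of pyruvate dehydrogenase that Pdk1 phosphorylates. Pdha1 had 218 and 225 CPM in WT and 139 and 132 CPM in CBE-KO (-0.71 ± 0.05, SE; adjusted p = 5.28e-09 in edgeR). Of the 11 genes of this complex and its regulators, 4 fell and 3 rose, with a median of 0.01. With library totals 4 passed as higher and 2 as lower, and in DESeq2 1 as higher and 4 as lower. Beside these and the counts below, 43.1% of all tested genes passed in edgeR, 44.5% with library totals and 28.6% in DESeq2. Pdp1, a phosphatase that reverses the action of the kinases, was higher by 0.59 in edgeR (adjusted p = 0.0237) but missed the threshold in DESeq2 (adjusted p = 0.139) and without WT 1 or CBE-KO 2. Of 6 tested lactate and pyruvate carrier genes, 1 passed as higher and 1 as lower in edgeR and none in DESeq2, with a median of -0.02. Those were Emb (0.18) and Slc16a3 (-0.14), both close to the threshold and named after their values were seen, and the largest difference, -0.55 for the pyruvate carrier subunit Mpc1, did not pass (adjusted p = 0.0560 in edgeR). Of 5 enzymes that set fructose 2,6-bisphosphate, 1 fell and none rose, with a median of -0.19, and with library totals Pfkfb2 passed as higher. The gene that fell was Tigar (-0.46 ± 0.06, SE; adjusted p = 5.30e-06 in edgeR), a phosphatase acting against phosphofructokinase, named after its values were seen.

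Among the side branches, 2 genes each passed in the pentose phosphate pathway and gluconeogenesis, and 7 of 10 in the serine and hexosamine branches. Of all tested genes 43.1% passed, 21.6% higher and 21.5% lower. With library totals 44.5% of all tested genes passed, 29.8% higher and 14.7% lower. In the pentose phosphate pathway 2 of 7 genes fell and none rose (median -0.13), and with library totals 1 passed as lower and 2 as higher. The larger fall was that of Rpe, an epimerase of the nonoxidative arm (-0.52 ± 0.08, SE; adjusted p = 3.52e-05 in edgeR). In gluconeogenesis 1 of 5 tested genes fell and 1 rose (median -0.08). Fbp2, the muscle fructose bisphosphatase, went from 146 and 141 CPM to 88.2 and 84.5 CPM (-0.73 ± 0.05, SE; adjusted p = 6.70e-09 in edgeR), and G6pc3 rose by 0.63 ± 0.12 (SE; adjusted p = 0.000348 in edgeR). In the serine and hexosamine branches 5 of 10 genes fell and 2 rose (median -0.16), and with library totals 4 passed as lower and 2 as higher. Gfpt2, an entry enzyme of hexosamine synthesis, rose by 0.59 ± 0.06 (SE; adjusted p = 2.06e-07 in edgeR). The other passing genes of these branches had smaller changes and were named after their values were seen. In the serine branch Phgdh (-0.27), Psat1 (-0.26), Shmt1 (-0.21) and Shmt2 (-0.30) fell, Shmt1 not with library totals. In the hexosamine branch Uap1 (0.38) rose and Gnpnat1 (-0.39) fell.

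Among 21 regulators of glycolytic genes, 20 were tested, 7 rose and 5 fell (median 0.01), where 43.1% of all tested genes passed. DESeq2 passed 5 as higher and 3 as lower, and library totals 7 and 3, where they passed 28.6% and 44.5% of all tested genes. Myc, a transcription factor known to drive glycolytic genes, had 70.2 and 70.0 CPM in WT and 25.1 and 28.1 CPM in CBE-KO (-1.40 ± 0.08, SE; adjusted p = 2.17e-10 in edgeR). Mycn fell from 25.6 and 31.3 CPM to 15.3 and 13.7 CPM (-0.97 ± 0.12, SE; adjusted p = 3.52e-06 in edgeR). Mycl, the remaining member of this family, named after its values were seen, rose from 13.4 and 13.9 CPM to 23.9 and 20.0 CPM (0.69 ± 0.12, SE; adjusted p = 0.000168 in edgeR). Hif1a, the oxygen-regulated subunit of hypoxia-inducible factor, did not pass, with 96.4 and 93.5 CPM in WT and 91.8 and 96.1 CPM in CBE-KO (-0.02, 95% interval -0.13 to 0.10; adjusted p = 0.841 in edgeR), and had the opposite sign with library totals (0.09) and upper-quartile scaling. Txnip, an inhibitor of glucose uptake, rose from 198 and 187 CPM to 354 and 344 CPM (0.86 ± 0.05, SE; adjusted p = 3.79e-10 in edgeR). Mlxipl, the glucose-sensing factor ChREBP, fell by 0.78 on the log2 scale. Egln3, an oxygen-sensing prolyl hydroxylase, rose by 1.03 and Prkaa2, a catalytic subunit of AMP-activated kinase, by 0.86. Of 20 hypoxia-induced genes outside glycolysis, 4 rose and 4 fell (median 0.08), and with library totals 7 passed as higher and 2 as lower. The rises past 0.5 that passed were those of the collagen-modifying enzymes P4ha2 (0.71 ± 0.09, SE) and Plod2 (0.61 ± 0.07). Car12 (0.85) and Adm (0.69) were also past 0.5 but did not pass, although Car12 did with library totals.

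**Figure D5:**
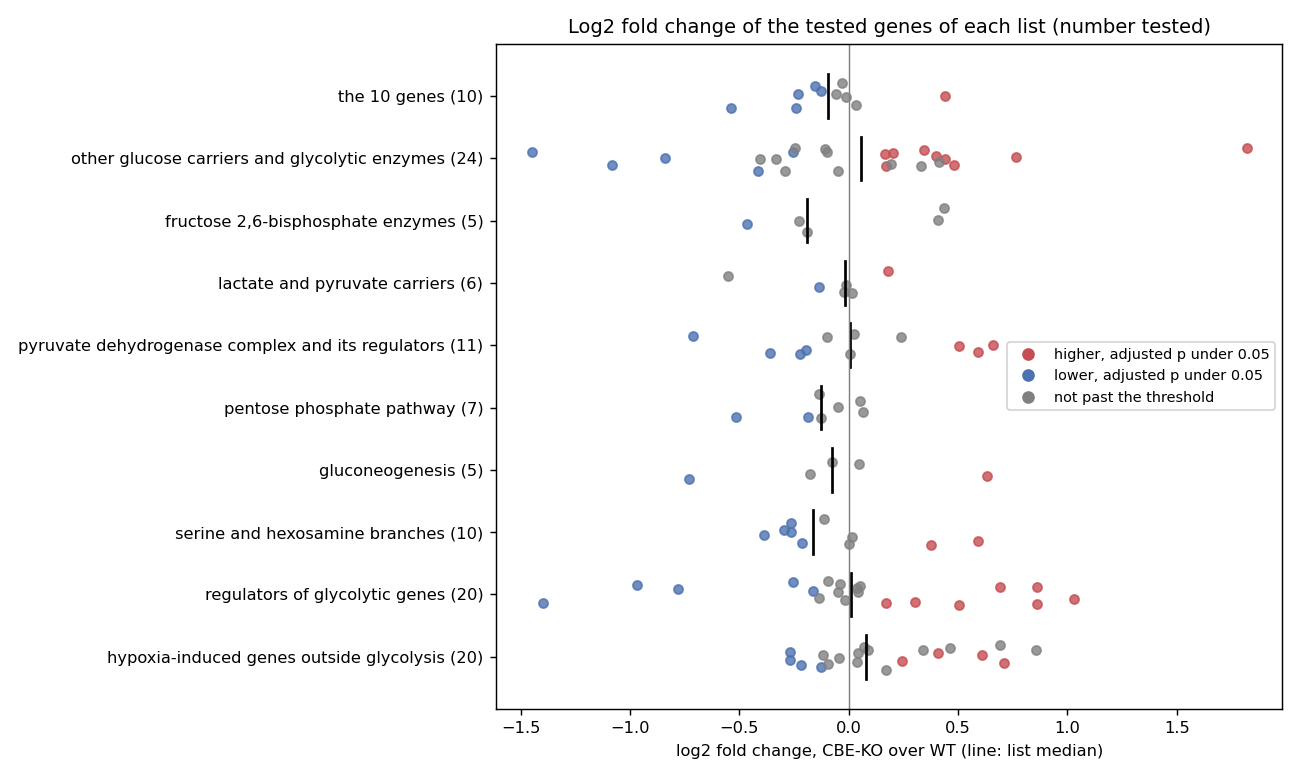
Log2 fold change of CBE-KO over WT (x axis) of each tested gene (points, spread vertically at random) in the 10 genes and the 9 other lists (y axis, number tested in brackets), with the list median as a line. Medians lie between -0.19 and 0.08 and every list with 2 or more calls, except the pentose phosphate pathway, holds genes past the threshold in both directions.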

How the data were processed

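Counts of reads per Ensembl gene were deposited by the authors as 1 table per library, whole numbers without normalization. The submitters' processing notes name HISAT2 2.1.0, HTSeq 0.9.1 and the build mm10, without their role, and use of strand, annotation release and treatment of multiply matching reads are not given in the sources used here. Of 52636 identifiers, 52403 matched a symbol in the supplied table. Coordinates and promoters are RefSeq's for GRCm38.p6. The series' 6 Capture-C libraries were left out, since the genes were compared in RNA-seq only.

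Genes were filtered with filterByExpr (16005 kept), libraries scaled by TMM (CPM use these sizes), and CBE-KO compared with WT over all genes with edgeR 4.0.16 (R 4.3.3; glmQLFit, glmQLFTest, two-sided, no covariate), with Benjamini-Hochberg adjustment and a threshold of 0.05. Errors are standard errors of the log2 fold change, and 95% intervals use the moderated degrees of freedom. CPM compare libraries, not genes, since no lengths were used. Alternatives were DESeq2 1.42.0, other scalings, filters and thresholds, robust moderation, a replicate block and leaving out each library. Summing gene copies was chosen after seeing the data. The fits were first run on simulated counts, where few genes changed, in random direction, and all genes shared the same spread. That run does not bear on the small changes or on the choice of scaling here.

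The members and lists were chosen with earlier results of these data known. Named genes were the 10 members, their paralogues, Gapdh, Tpi1, Pgam1, Gpi1, Hif1a, Myc, Mycn and Txnip, and per list up to 6 genes past the threshold and at least 0.5 from 0 in log2. No genes of like pattern were sought, since 4 libraries in 2 groups cannot rank them.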

Additional observations from a re-analysis of the deposited data

How the results depend on the processing

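With the replicate block, 7027 genes passed, 6 of the 10 members among them, and the block changed no call of a member. The correlation of same-numbered deviations was 0.035, and the labels do not say that equal numbers were prepared together. The count of all passing genes, 6895, became 4577 in DESeq2 and 1383 when a log2 change of 1 in either direction was also required. None of the members reached that size (0 in edgeR, also at an unadjusted p under 0.05, and 0 in DESeq2). The share of passing genes that were higher was 50.2% with TMM and 67.0% with library totals. The median of the members, -0.093, became -0.058 with upper-quartile scaling and 0.012 with library totals. Of 130 alternative values for single members, 114 kept their sign and their side of the threshold, 7 lost the call (Aldoa and Pkm), 1 gained it (Slc2a1) and 8 changed sign, none of them past the threshold. Sign changes were those of Pgk1 (0.021) and Pdk1 (0.0042) with upper-quartile scaling and of Pfkp (0.046), Pgk1 (0.090) and Pdk1 (0.074) with library totals. Leaving out 1 library gave -0.041 to 0.010 for Pgk1 and -0.074 to 0.012 for Pdk1. In such fits the lone library is assumed to vary like the other group. The cause of these changes was not tested. The lowest count of a tested member was 1048, and Hk3 had 4 to 17 counts per library.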
